A study of Caenorhabditis elegans with 2 samples.

Results

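The proteasome subunit genes of Caenorhabditis elegans were examined for binding of BLMP-1, a zinc finger factor related to PRDM1 of mammals. They were taken as the protein-coding genes of the Ensembl annotation named rpn-, rpt-, pas- or pbs- plus a number. This gave 33 of the 19973 nuclear protein-coding genes. They comprised 9 genes of the regulatory lid, 10 of the base, 7 of the alpha ring and 7 of the beta ring. The genes were found by name, but the set was selected on thresholded summits already seen at these genes in the same data, so its counts and signals are descriptions and carry no test.

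Chromatin immunoprecipitation and sequencing had been done on whole hermaphrodites at the L2 larval stage. All animals were of strain OP109, which carries the transgene wgIs109 and the mutation unc-119(ed3) and makes BLMP-1 with GFP and FLAG at its C-terminal end. The labels name blmp-1 as the antibody target and give no age. The 2 biological replicates carry the numbers 2 and 3 in the labels. Chromatin was sheared by sonication, and a control library was not analysed here. Whole larvae mix all tissues, and 1 transgenic line was used, so the peaks cannot say in which cells BLMP-1 was bound.

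The proteasome degrades proteins that carry ubiquitin chains. A barrel-shaped core holds the proteolytic sites inside its beta rings, and its outer alpha rings gate the entrance. A regulatory particle sits on the core: its base contains a ring of ATPases that unfold the substrate, and its lid contains the enzyme that removes the ubiquitin chain. In worms an isoform of the NRF-type factor SKN-1 is known to raise proteasome genes when proteasome activity is impaired.

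A window of 1000 bp upstream to 200 bp downstream of every transcript start was searched for peak summits. The thresholded list, which the authors made from both replicates with a threshold on reproducible rank, held 3031 nuclear peaks. Their signals ran from 27.1 to 858. The relaxed lists, which include background peaks by design, held 19523 nuclear peaks for replicate 2, 25112 for replicate 3 and 29970 for the pooled replicates. Each thresholded summit described below at a proteasome gene had the same signal and rank in the pooled relaxed list. A thresholded call therefore does not show that a summit was strong in each replicate alone. Signals are the authors' values on a scale not given in the sources used here, so they are read within 1 list only, and ranks count from the strongest nuclear peak of a list. The lists give no read counts, which leaves the depth unknown.

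Sequences around the summits are shown first, because the letters they share are described further on. Each runs 50 bp to either side of the thresholded summit, 5′ to 3′ on the strand of the proteasome gene, and was read from the RefSeq sequence of WBcel235, the same assembly as ce11. The window of rpn-3, the strongest of the set, covers chrIII:8447124-8447224 on the plus strand, and the window of rpn-9 covers chrII:11239130-11239230 on the minus strand, with the word AGACGCAG in capitals.
rpn-3: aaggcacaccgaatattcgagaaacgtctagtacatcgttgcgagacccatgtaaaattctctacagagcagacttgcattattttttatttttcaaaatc
rpn-9: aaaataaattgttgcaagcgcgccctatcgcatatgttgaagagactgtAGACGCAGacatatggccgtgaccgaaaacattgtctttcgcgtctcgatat
The other 5 hold the word ATTGTCA or its reverse complement TGACAAT, in capitals. They cover chrIII:6961289-6961389 (rpn-6.1, minus strand), chrII:11652938-11653038 (rpn-12, plus strand), chrV:6017758-6017858 (rpt-2, minus strand), chrII:43765-43865 (rpt-4, minus strand) and chrIV:1709861-1709961 (pbs-1, minus strand).
rpn-6.1: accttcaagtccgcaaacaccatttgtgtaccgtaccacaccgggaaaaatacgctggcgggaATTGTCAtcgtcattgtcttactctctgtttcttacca
rpn-12: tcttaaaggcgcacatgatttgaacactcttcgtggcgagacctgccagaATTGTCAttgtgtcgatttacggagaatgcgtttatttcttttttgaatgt
rpt-2: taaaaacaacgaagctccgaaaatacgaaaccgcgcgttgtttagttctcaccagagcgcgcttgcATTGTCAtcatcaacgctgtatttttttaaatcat
rpt-4: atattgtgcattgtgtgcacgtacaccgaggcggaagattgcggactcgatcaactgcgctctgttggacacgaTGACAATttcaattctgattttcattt
pbs-1: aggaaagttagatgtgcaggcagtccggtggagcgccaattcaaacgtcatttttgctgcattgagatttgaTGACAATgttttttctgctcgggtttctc

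Of the 33 proteasome genes, 12 had a thresholded summit in the window (36.4%, 95% Wilson interval 22.2 to 53.4, counting genes only), against 8.85% of all nuclear protein-coding genes. Each of the 12 had exactly 1 such summit, and no summit served 2 proteasome genes. In this list the lid stood highest, with 6 of its 9 genes. The base had 2 of 10, the alpha ring 2 of 7 and the beta ring 2 of 7. With so few genes per subcomplex, the Wilson intervals overlapped (35.4 to 87.9% for the lid and 5.67 to 51.0% for the base), and the difference between subcomplexes was not tested. Most of these summits were weak members of the list. Their median signal was 34.4, against 44.3 over the 1767 genes of any kind with a summit, and 3 of the 12 (rpn-3, rpn-9 and rpt-2) had a summit among its strongest 1530 peaks, against 874 of those 1767 genes. Those 874 were 4.38% of all nuclear protein-coding genes.

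**Figure D1:**
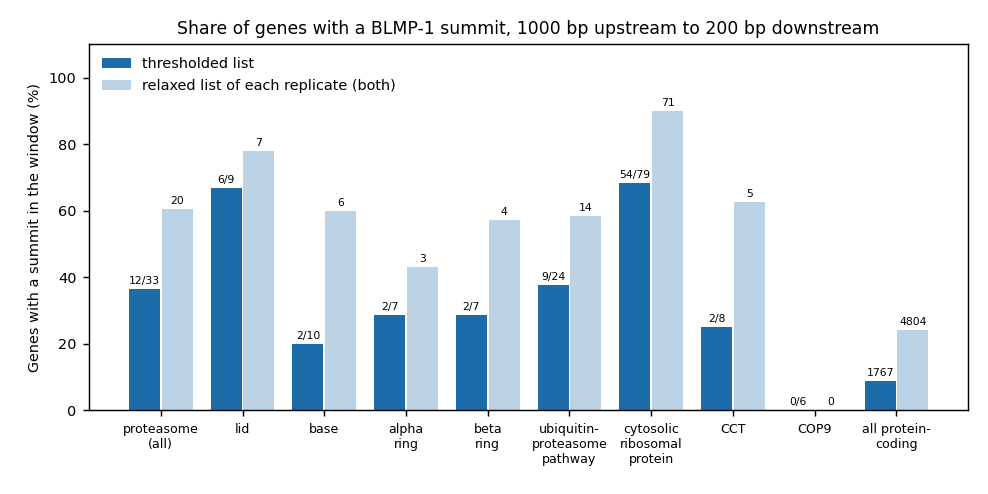
Share of genes (%) with a summit in the window, for the thresholded list (dark bars) and for relaxed lists of replicate 2 and replicate 3 both holding one (light bars); numbers over bars are genes. The lid (6 of 9) stands above the base (2 of 10) and the rings (2 of 7 each), and all proteasome genes together (12 of 33) above all protein-coding genes (1767 of 19973).

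The lid gene rpn-3 (WBGene00004460, chromosome III, 8447353 to 8449346) had the strongest summit of the set, at 8447174, which is 179 bp upstream of its start. Its signal was 101 and its rank 301 of 3031. In replicate 2 the strongest summit in its window had a signal of 48.5 and rank 227, and in replicate 3 a signal of 50.9 and rank 456. The replicate summits lay 1 bp and 0 bp from the thresholded one. It was the best-ranked proteasome gene in each replicate.

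The lid gene rpn-9 (chromosome II, summit 11239180, 261 bp upstream) had a signal of 46.5 and rank 1410. Replicate 2 gave it a signal of 17.2 and rank 1723, and replicate 3 a signal of 22.1 and rank 2058. The lid gene rpn-5 had its summit at 4698470 on chromosome II, 43 bp upstream of a start, with a signal of 38.5 and rank 1869. Replicate 2 gave it a signal of 11.7 and rank 2932, and replicate 3 ranked it 1948. Both replicates thus placed rpn-5 and rpn-9 among their own strongest 3060 peaks, as they did rpn-3.

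rpn-11 encodes the metalloprotease of the lid that cuts the ubiquitin chain from the substrate. Its summit (chromosome II, 4044570) lay closest to a start of all 12, at 24 bp upstream, with a signal of 33.3 and rank 2284. The replicates differed in order here: signal 18.7 and rank 1499 in replicate 2, and signal 13.3 and rank 4095 in replicate 3. rpn-12 had a signal of 28.2 and rank 2895 (chromosome II, summit 11652988, 136 bp upstream), with a signal of 10.6 and rank 3296 in replicate 2 and a signal of 14.6 and rank 3612 in replicate 3. It was the only one of the 12 that fell outside the strongest 3060 peaks in both replicates.

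rpn-6.1 encodes a lid subunit whose raised expression is known to increase proteasome activity and stress resistance in worms. Its summit was the weakest of the 12, with a signal of 27.7 and rank 2948 (chromosome III, 6961339). It lay inside the annotated gene, 399 bp upstream of an internal transcript start. Replicate 3 had a summit at the same base with a signal of 21.8 and rank 2102. In replicate 2 the nearest summit was 772 bp away, with a signal of 5.46 and rank 7298. The call at rpn-6.1 therefore had no counterpart within 100 bp in replicate 2.

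The other 3 lid genes had no thresholded summit. rpn-8, the inactive partner of rpn-11, had a pooled relaxed summit with a signal of 13.2 and rank 7001, seen in replicate 3 alone. rpn-7 had one with a signal of 12.1 and rank 7630, with relaxed summits in both replicates. rpn-6.2, a paralogue of rpn-6.1, had a pooled relaxed summit of 3.19 and rank 26520 and none in either replicate.

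In the base, 2 of the 6 ATPase genes had a thresholded summit. rpt-2 (chromosome V, summit 6017808, 139 bp upstream) had a signal of 50.6 and rank 1209, the second strongest of the 12. Its signal was 16.3 and its rank 1853 in replicate 2, and 33.5 and 1075 in replicate 3. rpt-4 had a signal of 33.6 and rank 2251 (chromosome II, summit 43815, 153 bp upstream of an internal start, inside the annotated gene). It had a signal of 19.9 and rank 1371 in replicate 2, and a signal of 12.3 and rank 4482 in replicate 3. The order of rpt-2 and rpt-4 thus differed between the replicates. With the annotated 5′ end of each gene as its only start, rpt-4 and rpn-6.1 had no summit, and the count fell to 10 of 33 genes against 7.97% of all genes.

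None of the base genes outside the ATPases had a thresholded summit. These are rpn-1 and rpn-2, which are scaffolds, and rpn-10 and rpn-13, which bind ubiquitin chains. Their strongest pooled relaxed summits had signals of 11.1, 6.59, 6.63 and 4.89. Of the base genes below the threshold, the ATPase gene rpt-1 came nearest to it, with a pooled signal of 23.9 and rank 3550, 105 bp from its start; its signal was 7.18 and its rank 5344 in replicate 2, and 16.6 and 3085 in replicate 3. rpt-6 had a pooled signal of 20.7 and rank 4217 (6.31 and 6164 in replicate 2, 13.1 and 4135 in replicate 3), and gained a thresholded summit at 1237 bp when the window ran to 2000 bp upstream, where 13 of 33 genes had one against 12.1% of all genes. The pooled signals of rpt-5 and rpt-3 were 18.6 and 13.1.

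In the alpha ring, pas-4 (chromosome I, summit 8728636, 149 bp upstream) had a signal of 42.8 and rank 1588. The replicates ranked it alike, with a signal of 18.4 and rank 1546 in replicate 2 and a signal of 28.6 and rank 1391 in replicate 3. pas-5 had a signal of 29.3 and rank 2749 (chromosome I, summit 10566078, 272 bp upstream), with a signal of 10.4 and rank 3378 in replicate 2 and a signal of 18.1 and rank 2740 in replicate 3. pas-3 had no thresholded summit, although replicate 3 ranked its summit 2597; the relaxed list of replicate 2 held none in that window. The pooled relaxed signals of pas-7, pas-3 and pas-6 were 14.6, 15.8 and 3.87. For pas-2 a relaxed summit of 4.48 was found in replicate 3 alone, and for pas-1 no list held any.

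In the beta ring, the thresholded summits were at pbs-1 and pbs-7. pbs-1, which encodes the subunit with caspase-like activity, had a signal of 29.9 and rank 2659 (chromosome IV, summit 1709911, 166 bp upstream). It had a signal of 20.6 and rank 1295 in replicate 2, and a signal of 17.6 and rank 2849 in replicate 3, where the summit was 93 bp away. pbs-7 had a signal of 35.2 and rank 2118 (chromosome I, summit 8696463, 162 bp upstream). The replicates were far apart here: signal 32.7 and rank 1133 in replicate 3, and signal 2.80 and rank 14971 in replicate 2.

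The beta subunit genes pbs-2 and pbs-5, for the trypsin-like and chymotrypsin-like sites, had no thresholded summit. pbs-2 had a pooled relaxed summit with a signal of 19.9 and rank 4431, and pbs-5 had none in any list. pbs-3 had the strongest pooled relaxed summit among the 21 genes below the threshold, with a signal of 25.3 and rank 3283. Its signal was 6.54 and its rank 5912 in replicate 2, and 8.88 and 6497 in replicate 3. That pooled value stands just outside the list, as the 27.7 of rpn-6.1 stands just inside it. pbs-6 had a pooled signal of 5.10, and pbs-4 had no summit in any list.

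**Figure D2:**
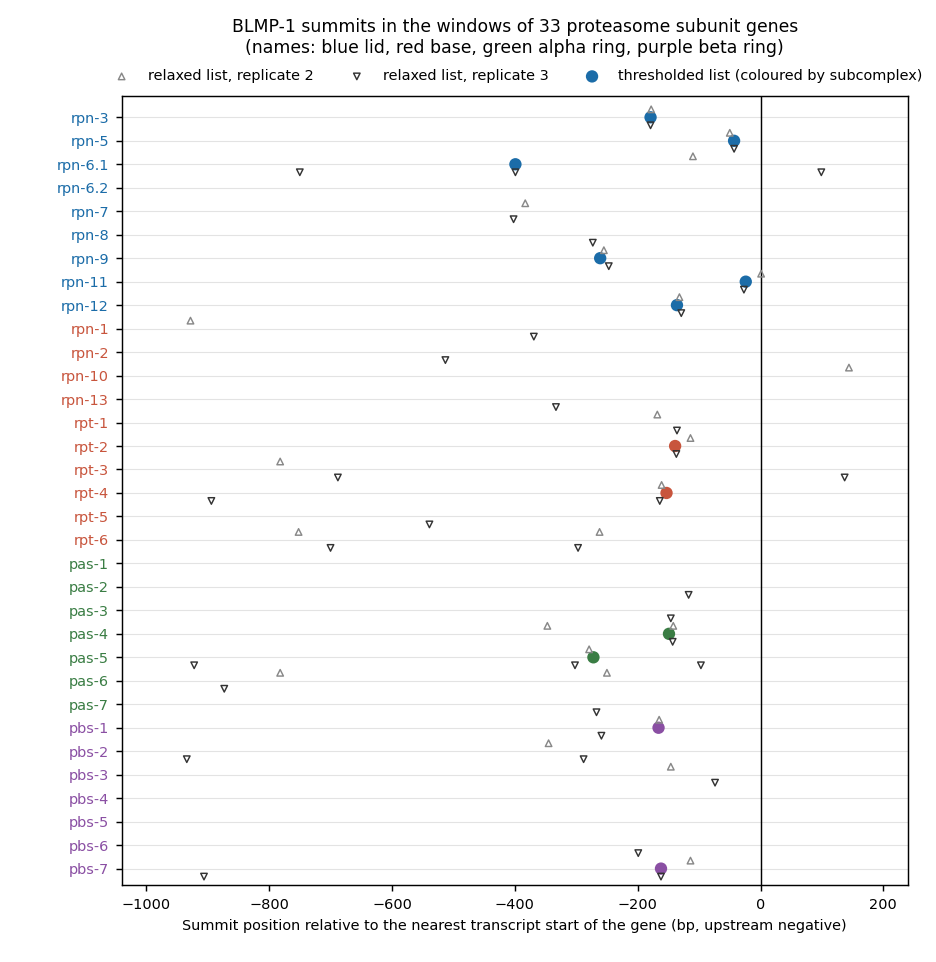
Position of every summit in the windows of the 33 proteasome genes, in bp from the nearest transcript start (x axis), 1 row per gene. Filled circles are thresholded summits, upward triangles (just above a row) relaxed summits of replicate 2 and downward triangles (just below) those of replicate 3; the 12 circles all lie upstream of a start, from 24 to 399 bp, and rpn-6.2, pas-1, pbs-4 and pbs-5 have no mark (rpn-6.2 had a summit in the pooled relaxed list alone, which is not drawn).

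The relaxed lists reached many more proteasome genes, as they did other genes. A relaxed summit stood in the window of 21 of 33 in replicate 2 (63.6%, against 32.5% of all genes) and of 28 of 33 in replicate 3 (84.8%, against 37.9%). Both replicates held one at 20 of 33 (60.6%, against 24.1%). With the added demand that the replicate summits lie within 100 bp of each other, the count was 18 of 33 (54.5%, against 17.4%). The count for both replicates was 17 with 500 bp upstream (against 18.2%), 22 with 2000 bp (against 32.4%) and 19 with the annotated 5′ end alone (against 21.6%). The pooled relaxed list had a summit at 29 of 33 (87.9%, against 40.8%). The pooled list took in all 9 lid genes and all 10 base genes, and 5 of 7 in each ring. A relaxed summit can be background, so these shares do not count bound genes.

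Among the 12 genes with a thresholded summit, 11 had a summit of both replicates within 100 bp of it, and rpn-6.1 had only that of replicate 3. The share was not taken for other thresholded summits, and the relaxed lists hold many weak peaks. At pbs-7 the matching summit of replicate 2 had a signal of 2.8 and rank 14971. By rank alone the replicates were less alike. The strongest 3060 peaks of replicate 2 included a window summit at 8 proteasome genes (against 8.59% of all genes), and those of replicate 3 at 10 (against 8.49%). In each set 4 were lid genes. Of the 12, 6 were in both sets, namely rpn-3, rpn-5, rpn-9, rpt-2, pas-4 and pbs-1. Another 5 were in 1 set only, rpn-11 and rpt-4 in that of replicate 2 and rpn-6.1, pas-5 and pbs-7 in that of replicate 3. This split was not counted over all genes with a thresholded summit.

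**Figure D3:**
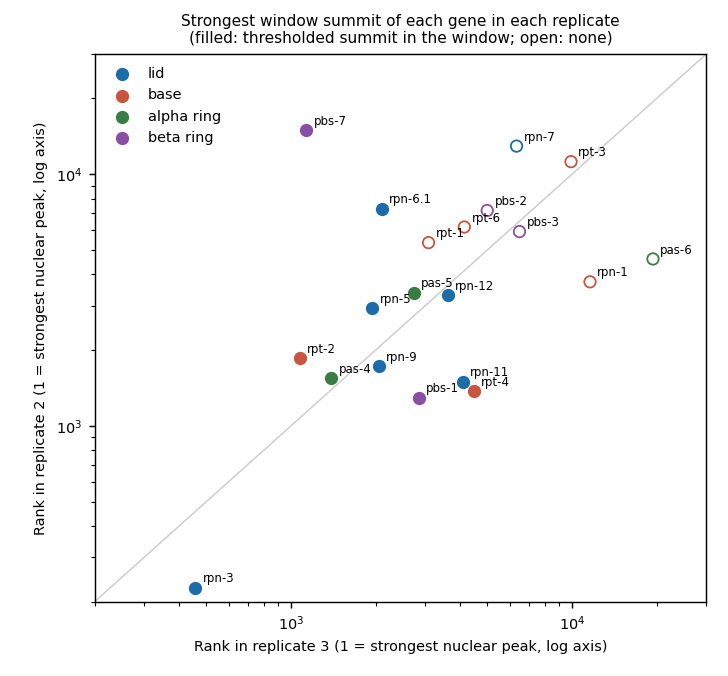
Rank of the strongest window summit of each proteasome gene in replicate 3 (x axis) and replicate 2 (y axis), both log axes with 1 as the strongest nuclear peak, for the 20 genes with one in both replicates. Filled points have a thresholded summit; rpn-3 (ranks 456 and 227) stands apart at the strong end, and pbs-7 (1133 and 14971) and rpn-6.1 (2102 and 7298) lie far above the line of equal rank.

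The summits sat close to the starts. All 12 summits lay upstream of the start, as did the strongest summits of 1670 of the 1767 genes with one. The median distance was 157.5 bp for the 12, against 248 bp for the 1767. Within 300 bp of a start lay 11 of the 12 (91.7%), against 58.5% of the 1767. Shortening the window to 500 bp upstream therefore lost none of the 12, while the share of all genes fell to 6.87%. Annotated starts are approximate in worms, because trans-splicing removes the first bases of many transcripts.

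Sharing of a summit between gene windows was the common arrangement. The summit lay in the window of a second gene at 10 of the 12 (83.3%), against 38.8% of the 1767 genes with a summit and 66.7% of the 54 such ribosomal protein genes. Such sharing does not by itself show a shared promoter, and at rpn-6.1 and rpt-4 the summit lay inside the annotated gene. The partner was hsp-110, which encodes a large heat shock chaperone, at rpn-3, and scc-1, which encodes a cohesin subunit, at rpn-5. At rpn-12 the partner was rad-23, whose product shuttles ubiquitinated proteins to the proteasome. The summit of rpt-2 was shared with aps-1, an adaptor subunit of clathrin coats, and that of rpt-4 with nfyc-1, a subunit of the NF-Y factor. The summit of pas-4 was shared with rpb-3, a subunit of RNA polymerase II. The partners of rpn-6.1, rpn-9, pbs-1 and pbs-7 were F57B9.1, T06D8.9, K08D12.3 and F39H11.1. The 2 unshared summits were those of rpn-11 and pas-5.

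At 7 of these 10 shared summits the start of the proteasome gene was the nearer one, and at rpt-4, pas-4 and pbs-7 that of the partner. The gaps were often small: at rpt-2 the summit lay 139 bp from its own start and 162 bp from that of aps-1. Peak lists cannot assign such a summit to 1 of the 2 genes. If each summit is given only to the nearest start, 9 proteasome genes keep one (against 7.13% of all genes), and all 6 lid genes are among them.

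The arrangement of neighbouring genes was described after the shared summits had been seen, and has no test. A neighbour on the opposite strand lay within 1000 bp upstream at 20 of 33 (60.6%), against 17.5% of all protein-coding genes. Cytosolic ribosomal protein genes had nearly the same share of such neighbours, at 46 of 79 (58.2%). Among such head-to-head genes, 9 of 20 proteasome genes had a thresholded summit (45.0%), against 15.6% of head-to-head genes of any kind and 71.7% of those of ribosomal proteins. Among genes without such a neighbour, 3 of 13 proteasome genes had one (23.1%), against 7.42% of genes of any kind and 63.6% of those of ribosomal proteins. These 3 were rpn-11, pas-5 and rpt-4. Neighbours were taken from the annotated 5′ end of a gene, but summits from any transcript start. The summit of rpt-4 lay at an internal start and was shared with nfyc-1, so its place in this class is uncertain. In both arrangements the share of proteasome genes lay above that of all genes and below that of ribosomal protein genes. The proteasome set was selected on these summits, and the classes are small. Whether the arrangement accounts for its share was not tested.

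In worms, genes that follow closely on the same strand are often transcribed together from the promoter of the first. A same-strand gene ended within 500 bp upstream of 8 proteasome genes, rpn-6.2, rpn-10, rpn-11, rpn-13, rpt-3, pas-1, pbs-3 and pbs-5. Of these, rpn-11 alone had a thresholded summit, against 11 of the other 25 proteasome genes (44.0%). Over all genes the shares were 5.75% with such a neighbour and 9.53% without. The annotation used here does not name operons, so whether these genes are co-transcribed was not tested.

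The distance to the nearest thresholded summit varied widely among the 21 proteasome genes without one in the window. The nearest thresholded summit to any of their starts was at 1237 bp (rpt-6) at the closest, at a median of 9627 bp, and at 70538 bp (pas-7) at the farthest. It lay beyond 2000 bp for 19 of them and beyond 10000 bp for 10. These distances were not taken for other genes, so they are no trait of the proteasome genes. Of all protein-coding genes, 12.1% had a thresholded summit with the window of 2000 bp upstream. No proteasome gene lies on chromosome X.

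The letters at the summits were compared with those at all 1515 thresholded summits in protein-coding promoter windows, over 50 bp to each side and on both strands. The core of the mammalian PRDM1 consensus, as AGTGAAAG or AGCGAAAG, was found at 0 of 12 proteasome summits, against 4.69% and 1.32% of the 1515. The overlapping word AAGTGAAA was found at 0 of 12 (7.72% of the 1515), as were GAGAGAGA (7.39%) and TTATCAT (3.96%). AGACGCAG was found at rpn-9 alone, centred 2.5 bp from the summit, against 8.65% of the 1515. Background shares this low leave nothing to read from 0 or 1 of 12. The median content of G and C was 44.1% for the proteasome summits and 44.6% for the 1515.

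A different word recurred at the proteasome summits. ATTGTCA, on either strand, lay within 50 bp of 7 of the 12 (rpn-5, rpn-6.1, rpn-12, rpt-2, rpt-4, pas-5 and pbs-1), against 29 of the 1503 other promoter summits (1.93%). It was noticed on reading these windows, so the count is a description and has no test. In the 5 windows printed above, the word was centred 3 to 27 bp from the summit, on the downstream side in each. It stood on the gene's strand at rpn-6.1, rpn-12 and rpt-2 and on the opposite strand at rpt-4 and pbs-1. Its side and strand at rpn-5 and pas-5 were not listed, so the shared side holds for the printed windows only. At cytosolic ribosomal protein genes, 2 of the 51 summits had it (3.92%).

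The word lies within one spelling, ATTGTCAT, of the SKN-1 consensus, whose 8 forms are AATATCAT, AATGTCAT, ATTATCAT, ATTGTCAT, TATATCAT, TATGTCAT, TTTATCAT and TTTGTCAT. One or more of these forms lay at 5 of the 12 proteasome summits (41.7%), against 4.26% of the other promoter summits and 0 of the 51 at ribosomal protein genes. The 5 were the same genes whose windows are printed with ATTGTCA in capitals, and each of these windows holds ATTGTCAT. This count is thus part of the count of ATTGTCA and not a separate result. It was also made after the windows were read, and has no test. A match of letters does not show that a factor was bound.

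The search was repeated in the fixed promoters of all 33 genes, from 250 bp before to 50 bp after the annotated 5′ end. These promoters contain the summit windows of rpn-5, rpn-12, rpt-2 and pbs-1, where ATTGTCA had been noticed. The promoter counts of ATTGTCA and of the SKN-1 forms are therefore not independent of the counts at summits. ATTGTCA was in 8 of 33 (24.2%), against 6.30% of all protein-coding promoters. Of those 8, 5 had a thresholded summit (rpn-5, rpn-11, rpn-12, rpt-2 and pbs-1) and 3 had none (rpt-5, pas-2 and pbs-6). A form of the SKN-1 consensus was in 11 of 33 (33.3%), against 16.5% of all promoters and 16.5% of those of ribosomal protein genes. Of those 11 proteasome genes, 5 had a thresholded summit and 6 had none. In these promoters ATTGTCA and the SKN-1 forms were thus also found at proteasome genes where BLMP-1 had no thresholded summit. Another word picked on reading the summit windows was TTTCAG, also without a test. It lay at 3 of the 12 proteasome summits (25.0%), against 5.32% of the other promoter summits. In the fixed promoters TTTCAG was in 23 of 33 (69.7%), against 51.7% of all protein-coding promoters. Ribosomal protein genes had it in 57 of 79 (72.2%), so the word was not particular to proteasome genes. These promoters also overlap summit windows in which TTTCAG was picked.

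Other genes of the ubiquitin-proteasome pathway were taken from a list of 25 names, of which 24 matched a gene (adrm-1 did not). A thresholded summit was found at 9 of these 24 (37.5%), against 8.85% of all genes. The strongest was at cdc-48.1, an ATPase that extracts ubiquitinated proteins, with a signal of 181 and rank 75 (rank 47 in replicate 2 and 102 in replicate 3). Next were usp-14, a deubiquitinase of the proteasome (129, rank 177), and let-70, a ubiquitin-conjugating enzyme (116, rank 229). The summits of usp-14 and let-70 lay 945 and 877 bp from the starts and were shared with vnut-1 and klc-1. The polyubiquitin gene ubq-1 had a signal of 58.2 and rank 958, and skn-1 itself a signal of 45.8 and rank 1440 (rank 1176 in replicate 2 and 1849 in replicate 3). The remaining 4 were aip-1 (37.6), ufd-3 (31.6), ubql-1 (31.0) and rad-23, whose summit is that of rpn-12. The other 15 had no thresholded summit. With the window of 500 bp upstream the count was 5 of 24, against 6.87% of all genes.

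Other large complexes were set beside the proteasome by the same measure, with no test of the difference. Cytosolic ribosomal protein genes had a thresholded summit at 54 of 79 (68.4%), with a median signal of 55.0. The chaperonin genes cct-1 to cct-8 had one at 2 of 8 (Wilson interval 7.15 to 59.1%), cct-1 with a signal of 67.0 and cct-8 with 41.6. The COP9 signalosome, which is built from relatives of the lid subunits, had none at its 6 genes (Wilson interval 0 to 39.0%). Both intervals include the 8.85% of all genes, so these small counts do not set either complex apart from other genes. The COP9 interval also overlaps that of the lid (35.4 to 87.9%), so no contrast with the lid is read from it. A pooled relaxed summit was found at csn-1 (17.8) and csn-6 (16.9).

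**Figure D4:**
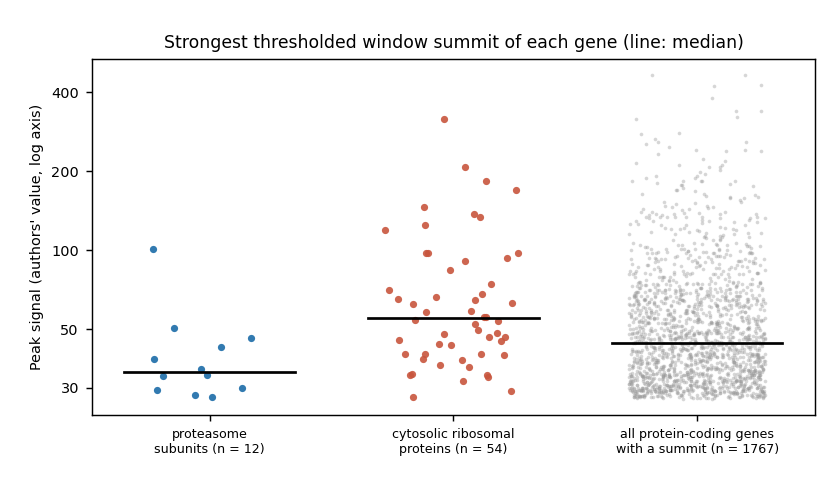
Signal (authors' value, log axis) of the strongest thresholded window summit of each gene with one, for 12 proteasome genes, 54 cytosolic ribosomal protein genes and all 1767 protein-coding genes with a summit; points are genes and lines medians. The proteasome median (34.4) is below that of the ribosomal protein genes (55.0) and of all genes (44.3), and rpn-3 (101) is the one proteasome gene above 100.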

How the data were processed

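Peak lists were deposited for 2 biological replicates of 1 group. The authors called relaxed lists, with background kept in, for each replicate and for pooled replicates, and took their thresholded list (irreproducible discovery rate) from these 3, per the deposited file descriptions. Aligner and caller: not given in the sources used here. Peak signal values were deposited by the authors on an unstated scale. Deposited −log10 q values did not rank peaks, since all 3060 thresholded ones stood at 3.98. Lists on ce11 were used, with genes of Ensembl release 115 (WBcel235, the same assembly); those on ce10 were not used here.

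A summit was assigned to each protein-coding gene with a transcript start whose window held it, and where a summit lay past the end of its peak (3 thresholded peaks) the last base was taken. Mitochondrial peaks were left out (29 in the thresholded list). Intervals cover the counting of genes only, and depth is unknown. The replicates are biological per the labels.

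The members, lists and motifs were chosen with earlier results of these data known, and ATTGTCA, the SKN-1 forms and head-to-head neighbours after the data were seen. The genes named were all members, the genes sharing their summits and the pathway genes with a summit; csn-1, csn-6, cct-1 and cct-8 were named after their values were seen. On simulated summits, 200 of 200 planted genes were recovered, and 0 of 1389 summits beyond every window were assigned to a gene. Alternatives were other windows, starts, thresholds, assignment and each replicate alone. Python 3.11.15, NumPy 2.4.6, pandas 2.3.3, SciPy 1.17.1 and matplotlib 3.10.9 were used.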

Additional observations from a re-analysis of the deposited data

How the results depend on the processing

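The count of 12 proteasome genes was 12 with 500 bp upstream, 13 with 2000 bp, 10 with the annotated 5′ end as the only start and 9 with the nearest start only; with the strongest 3060 peaks of 1 replicate it was 8 without replicate 3 and 10 without replicate 2. It depended most on the threshold: 3 among the strongest 1530 thresholded peaks (rpn-3, rpn-9 and rpt-2) and 29 in the pooled relaxed list, as for all genes (874 and 8149). Among those 1530 peaks the counts were 2 lid, 1 base, 0 alpha ring, 0 beta ring, 5 pathway and 1 CCT genes. In the pooled relaxed list they were 10 base, 5 alpha ring, 5 beta ring, 15 pathway, 7 CCT and 2 COP9 genes. Base genes fell to 1 with the gene's 5′ end only, and base, alpha ring and beta ring each to 1, with CCT genes at 0, by nearest start. With 500 bp upstream the pathway count was 5. With 1 replicate left out, the ranges were 4 to 4 for the lid, 1 to 2 for the base, 1 to 3 for the alpha ring and 1 to 2 for the beta ring. The 20 genes with a relaxed summit in both replicates ranged from 17 (500 bp upstream) to 22 (2000 bp upstream). Unknown depth limits what a missing summit shows. No paired analysis was possible because there is 1 group.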
